A study of Mus musculus with 12 samples.

Results

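The nuclear genes that encode proteins of the mitochondrial ribosome were followed in SCA1+ fibroblasts sorted from wounded and unwounded back skin of mice. The members were the rows of the count table whose gene symbol is Mrpl or Mrps followed by a number, with an optional letter a, b or c. This rule uses the symbol and no measured value, though the set was chosen with earlier results of these data known. It gave 78 genes of the 25239 in the table, 49 with Mrpl symbols and 29 with Mrps symbols. The mitochondrial ribosome, or mitoribosome, translates the few proteins that the mitochondrial genome encodes, which are core subunits of the respiratory chain and of the ATP synthase. Its RNAs come from the mitochondrial genome, whereas all of its proteins are encoded in the nucleus, made in the cytosol and imported. Some of these proteins descend from proteins of the bacterial ribosome and others are found in mitochondria alone. Fibroblasts, like other cells that respire, need the large and the small subunit in matching amounts.

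By place in the ribosome, 51 members belong to the large subunit, which joins amino acids, and 26 to the small subunit, which reads the messenger RNA. Of the large subunit genes 30 have a bacterial homologue and 21 are specific to mitochondria, against 16 and 10 of the small subunit genes. Symbols mislead for a few: Mrps18a and Mrps30 encode proteins of the large subunit and are counted there. Mrps36 belongs to neither subunit, since its product is known as a component of the oxoglutarate dehydrogenase complex of the citric acid cycle.

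All mice were wild-type male C57BL/6 animals of 8 weeks. There were 4 groups of 3 mice: unwounded back skin (NW), and full-thickness wounds of a 4 mm punch at 16 h, 1.5 d and 3 d. The sort kept live SCA1+ cells without the leukocyte marker CD45 or the endothelial marker CD31, so fibroblasts that lack SCA1 are missing from every group. The libraries held 26389453 to 43493475 counted fragments, of which the 78 members took 0.117% to 0.336%.

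All 12 fibroblast and sort markers had counts, and their summed level was 85575 to 187198 CPM (counts scaled to the size of the library, with TMM factors) in NW libraries. It was 40794 to 105956 CPM at 16 h, 87485 to 109386 CPM at 1.5 d and 119143 to 238700 CPM at 3 d. Keratinocyte markers were present too, at 20429 to 37568 CPM in NW libraries and at 8659 to 15524 CPM at 16 h, 4311 to 7594 CPM at 1.5 d and 975 to 13799 CPM at 3 d, with 17 of 18 listed genes in the table. Leukocyte markers summed to 52.5 to 97.4 CPM in wound libraries and 48.3 to 109 CPM in NW libraries, and the T cell gene Cd3e and the B cell gene Ms4a1 were at 0. Against NW, 5 of the 10 leukocyte markers tested rose and 1 fell at 16 h, 4 rose at 1.5 d and 2 at 3 d. Of all genes tested, 13.5% rose and 11.2% fell at 16 h, 13.7% and 10.8% at 1.5 d, and 12% and 9.15% at 3 d. Itgam, a gene of myeloid cells, had 3.80, 5.81 and 2.85 CPM at 16 h, against 0, 0.0658 and 0.265 CPM in NW. The part of these cells in the members' changes was not tested. Endothelial and mural markers summed to 12.1 to 93.8 CPM in wound libraries and 87.0 to 155 CPM in NW libraries, and muscle and adipocyte markers to 1.72 to 8.15 CPM in wound libraries and 49.3 to 89.4 CPM in NW libraries. Of 17 keratinocyte markers tested, 2 rose and 4 fell at 16 h, 2 and 10 at 1.5 d, and 2 and 8 at 3 d. Of 12 fibroblast and sort markers, 2 rose and 4 fell at 16 h, 4 and 2 at 1.5 d, and 4 and 1 at 3 d. Of 10 endothelial and mural markers, 0 rose at any time, and 4, 2 and 1 fell at 16 h, 1.5 d and 3 d. Of 8 muscle and adipocyte markers, 0 rose, and 4, 2 and 2 fell. In such sorted bulk samples fewer cells of a type and less RNA per cell cannot be told apart.

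All 78 members passed the filter on low counts, and the lowest count of any member in any library was 69. Levels were compared between genes as CPM per kb of exon. Mrpl33, a small protein of the large subunit, had the highest mean level at 126 ± 50.5 CPM per kb (SD, n = 12), with libraries between 55.2 and 209. Mrpl52 (84.9 ± 33.4 CPM per kb), Mrpl42 (69.4 ± 23.3) and Mrpl54 (62.9 ± 22.0), all specific to mitochondria, came next. Library ranges overlapped among these 4. Within a library, Mrpl33 was above the other 3 in all 12 libraries, whereas Mrpl52 was above Mrpl42 in 8 of 12. Mrpl1, which forms part of the stalk where finished tRNAs leave the ribosome, had the lowest level at 2.20 ± 0.844 CPM per kb. Mrps25 (3.61 ± 1.56), Mrpl19 (3.95 ± 0.676) and Mrpl44 (4.78 ± 1.95 CPM per kb) stood just above it. Within a library Mrpl1 was the lowest of these 4 in all 12, while Mrpl44 was above Mrpl19 in 7 of 12 and Mrpl19 above Mrps25 in 8 of 12. Mrps25 shares 58.3% of its exon bases with Nr2c2 and Mrpl19 shares 22.9% with Gcfc2. Fragments over exons of more than 1 gene were not counted under the settings in the file header, so these 2 levels per kb are too low by an unknown amount.

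The same limit touched Mrpl24 (37.4% of exon bases shared), Mrpl43 (31.7%), Mrps6 (18.6%) and Mrps27 (17%), and 11 members shared any exon base. Mrps18a, at 50 ± 14.1 CPM per kb, ranked 6 of 78. Mrps30, at 19.6 ± 5.08 CPM per kb, ranked 42, and the small subunit proteins Mrps18c (32.5 ± 11.7) and Mrps18b (24.7 ± 9.95) ranked 20 and 33. The 4 did not pass the test at 16 h against NW, at 0.09 for Mrps18a, 0.28 for Mrps30, 0.80 for Mrps18b and -0.43 for Mrps18c on the log2 scale. Mrps36, the member outside the ribosome, had 9.75 ± 2.41 CPM per kb. Its level in CPM was 6.05 to 7.77 as group means and it passed the test in none of the 6 comparisons.

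**Figure D1:**
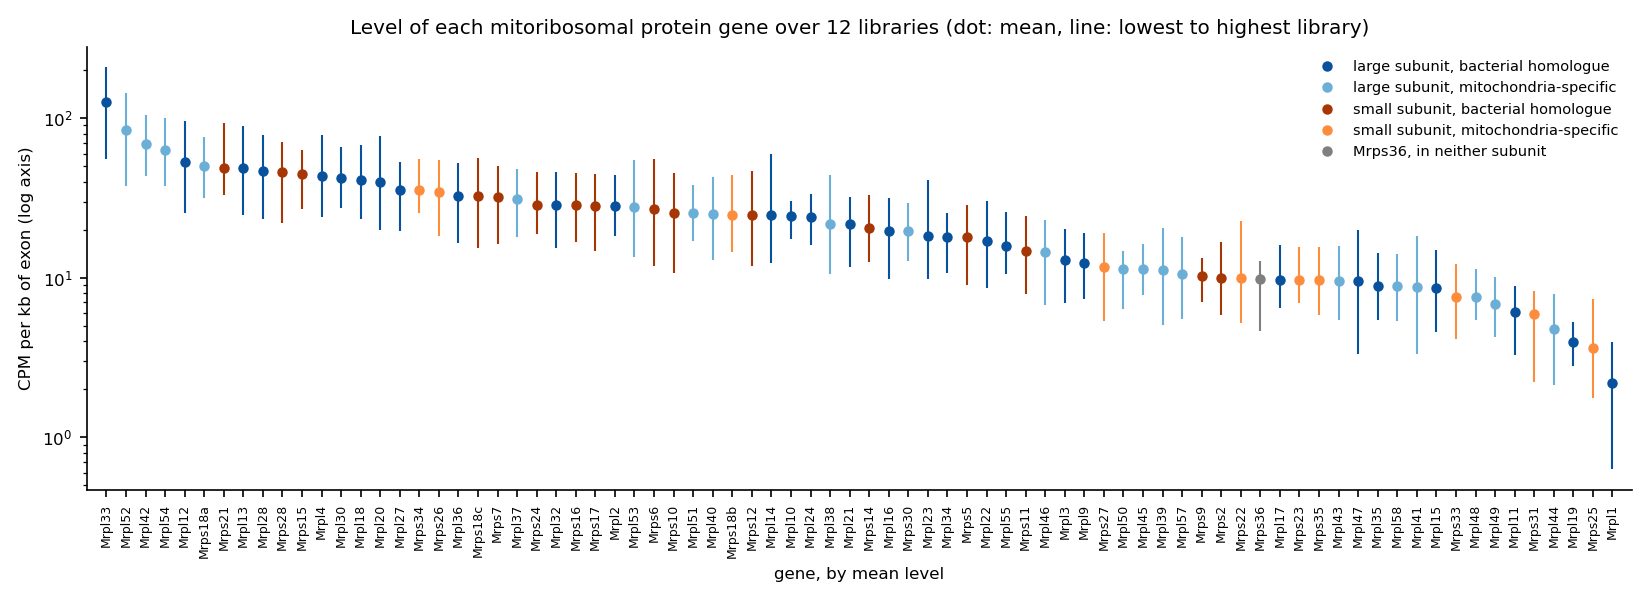
Mean level of each of the 78 genes over 12 libraries, in CPM per kb of exon on a log axis, with a line from the lowest to the highest library and colours for subunit and ancestry. Mrpl33 stands highest at 126 and Mrpl1 lowest at 2.20 CPM per kb, and genes of every class are spread along the order.

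The members moved together from library to library within each group. Summed over the 78 genes, the level was 1629, 2570 and 1649 CPM in NW replicates 1 to 3, 2049, 2045 and 2976 CPM at 16 h, 3200, 2061 and 1840 CPM at 1.5 d, and 1801, 1355 and 2601 CPM at 3 d. In each group 1 library thus stood above the other 2, by 1.57 times in NW, 1.45 times at 16 h, 1.64 times at 1.5 d and 1.65 times at 3 d. The high library was NW replicate 2, 16 h replicate 3, 1.5 d replicate 1 and 3 d replicate 3. It held the highest level of its group for 67, 71, 73 and 77 of the 78 members, in that order. Over all 14901 genes tested, the same 4 libraries were the highest of their group for 35.8%, 37.0%, 40.4% and 35.4% of genes. At 3 d, replicate 2 was the lowest of its group for 74 of the 78 members.

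Both subunits shared this pattern, and their proportion hardly moved. Large subunit genes summed to between 2.12 and 2.35 times the small subunit genes in all 12 libraries. At 3 d, replicate 3 was the highest for all 51 large subunit genes and for 25 of 26 small subunit genes. The median coefficient of variation within a group was 30.5% for the members and 30.1% for all genes in NW, 25.8% and 27.1% at 16 h, 35.2% and 30.3% at 1.5 d, and 33.5% and 27.5% at 3 d.

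Other groups of genes stood high in the same 4 libraries. Cytosolic ribosomal protein genes, 84 in the table, summed to 18972 CPM in NW replicate 2, against 8551 and 8698 CPM in the other NW libraries. They summed to 16344 CPM in 3 d replicate 3, against 9087 and 6267 CPM in the other 3 d libraries. Nuclear subunits of oxidative phosphorylation, 92 genes, were 1.61, 1.16, 1.42 and 1.61 times the mean of the other 2 libraries in the high library of NW, 16 h, 1.5 d and 3 d. Fibroblast and sort markers ran the other way in NW, 16 h and 3 d, at 0.496, 0.516 and 0.543 times the mean of the other 2 libraries, and were at 0.945 times at 1.5 d. Keratinocyte markers were 1.44 times as high in NW replicate 2, 0.771 times at 16 h, 1.12 times at 1.5 d and 2.67 times at 3 d.

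The members are shorter than most genes, with a median exon length of 1126.5 bases against 3014 bases for all genes tested, and 28 of 78 (35.9%) have under 1000 exon bases, against 6.79% of all genes tested. A short-gene score was therefore computed without them, as the mean log2 CPM of 984 genes under 1000 exon bases minus that of 3097 genes over 5000 bases. It was -0.70 in NW replicate 2 and -1.52 and -1.62 in the other NW libraries, -1.06 in 16 h replicate 3 and -1.73 and -1.86 in the others, -0.81 in 1.5 d replicate 1 and -1.57 and -1.79 in the others, and -0.93 in 3 d replicate 3 and -1.81 and -2.15 in the others. The 4 libraries with high members were thus also the 4 with the highest short-gene score. What makes these libraries differ was not tested.

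**Figure D2:**
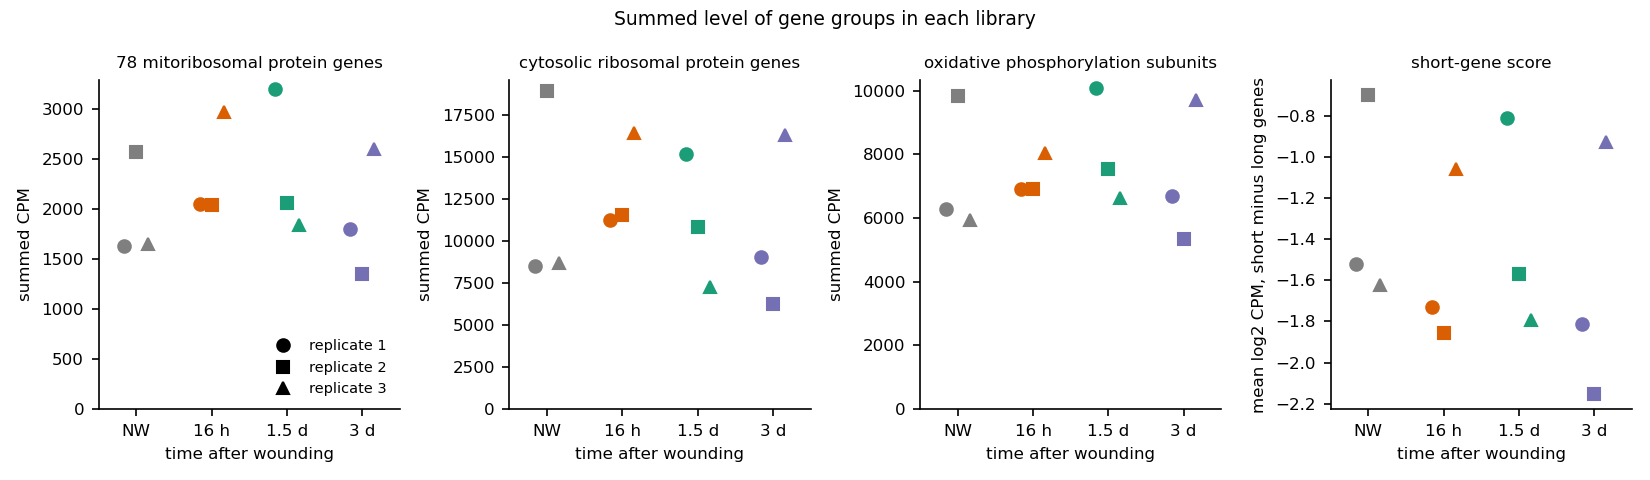
Each point is 1 library, with shape for the replicate and colour for the group: summed CPM of the 78 mitoribosomal protein genes, of cytosolic ribosomal protein genes and of oxidative phosphorylation subunits, and the short-gene score in log2 CPM. In each group the same library is the highest in all 4 panels, from 2570 to 3200 CPM for the members.

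At 16 h after wounding, 7 of the 78 members rose relative to NW and none fell (edgeR's quasi-likelihood test, Benjamini-Hochberg adjusted p under 0.05 over 14901 genes, which holds for every adjusted p below). That is 8.97% of the members, whereas 13.5% of all genes tested rose and 11.2% fell. The members leaned upwards in the sign of their change. The log2 change was positive for 55 of 78, or 70.5%, against 48.1% of all genes, with a median of 0.26 for the members and -0.04 for all genes. Without 16 h replicate 3 it was positive for 43 of 78. At an unadjusted p under 0.05 there were 13 members higher and 1 lower of 78, against 5566 of 14901 genes, 2911 of them higher. DESeq2 called 9 members higher and 0 lower, where it called 15.7% of all genes higher and 15.7% lower. Limma-voom called 8 members higher and 0 lower, where it called 13.7% of all genes higher and 13.1% lower. The libraries of the 2 groups did not overlap for 18 members that were higher (23.1%) and 2 that were lower (2.56%), where 20.4% of all genes were apart and higher and 20.9% apart and lower.

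Mrpl47, a large subunit protein near the exit of the peptide tunnel, had 10.9, 10.7 and 17.3 CPM at 16 h, against 5.38, 2.89 and 3.48 CPM in NW. The groups did not overlap, and the change was 1.73 ± 0.394 (log2 ± SE, 3.31-fold, adjusted p = 0.00707). Mrpl38, a large subunit protein specific to mitochondria, had 39.3, 39.7 and 61.8 CPM at 16 h, against 18, 23.4 and 15 CPM in NW. Every 16 h library lay above every NW library, with a change of 1.32 ± 0.269 (2.50-fold, adjusted p = 0.00381). Mrps22, a small subunit protein specific to mitochondria whose human gene is mutated in an inherited mitochondrial disease, had 15.2, 15.9 and 27.5 CPM at 16 h, against 6.33, 9.34 and 7.99 CPM in NW. It too was apart between the groups, by 1.31 ± 0.315 (2.47-fold, adjusted p = 0.00941). Mrpl3, a core protein of the large subunit, had 39.8, 46.6 and 55.5 CPM at 16 h, against 20.1, 19.1 and 23.4 CPM in NW, with a change of 1.18 ± 0.276 (2.27-fold, adjusted p = 0.00808). NW replicate 2, the high library for most members, was not high for Mrpl47 or Mrpl3.

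Mrps27, a small subunit protein with the repeats of RNA-binding proteins, had 33.7, 25.6 and 32.0 CPM at 16 h, against 12.1, 19.9 and 9.85 CPM in NW (1.13 ± 0.300, 2.18-fold, adjusted p = 0.0159). Its shared exon bases lie opposite the antisense gene 6430562O15Rik, and since the libraries do not keep the strand the remaining counts cannot be assigned to 1 strand with certainty. Mrpl15 averaged 47.3 ± 13.7 CPM at 16 h and 24.4 ± 5.22 CPM in NW (SD, n = 3 each; log2 change 0.96, adjusted p = 0.0332). Mrpl16, which lies close to the site where amino acids are joined, averaged 26.0 ± 6.32 CPM at 16 h and 13.4 ± 2.17 CPM in NW (0.96, adjusted p = 0.0302). All 16 h libraries were above all NW libraries for both.

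The members furthest down at 16 h did not pass the test. Mrpl14 had 8.44, 7.65 and 11 CPM at 16 h, against 14.6, 36.9 and 11.8 CPM in NW (-1.22 ± 0.524, adjusted p = 0.107). Mrpl4 had 48.0, 47.7 and 59.8 CPM at 16 h, against 62.2, 109 and 69.9 CPM in NW (-0.63 ± 0.302, adjusted p = 0.144). These were the 2 members whose 16 h libraries all lay below NW, and both were named after their values were seen. Among members that missed the threshold on the higher side, Mrps5 (0.80, adjusted p = 0.0611) and Mrpl12 (0.99, adjusted p = 0.0707) came closest. Mrpl12 is a stalk protein of the large subunit that is also known to bind the mitochondrial RNA polymerase.

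Libraries moved the count at 16 h. Leaving out NW replicate 2 gave 11 members that rose, where 10.4% of all genes rose, and leaving out NW replicate 3 gave 4, where 10.6% did, and the median ran from 0.08 without 16 h replicate 3 to 0.50 without NW replicate 2. Mrpl38, Mrpl47, Mrpl3 and Mrps22 kept their call whichever library was left out, while Mrps27 lost it without NW replicate 3 (adjusted p = 0.0548) or 16 h replicate 1 (0.051). Mrpl15 and Mrpl16 lost theirs without NW replicate 1 (adjusted p = 0.0615 and 0.0523), NW replicate 3 (0.0978 and 0.0873), 16 h replicate 2 (0.0532 and 0.0548) or 16 h replicate 3 (0.131 and 0.112).

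**Figure D3:**
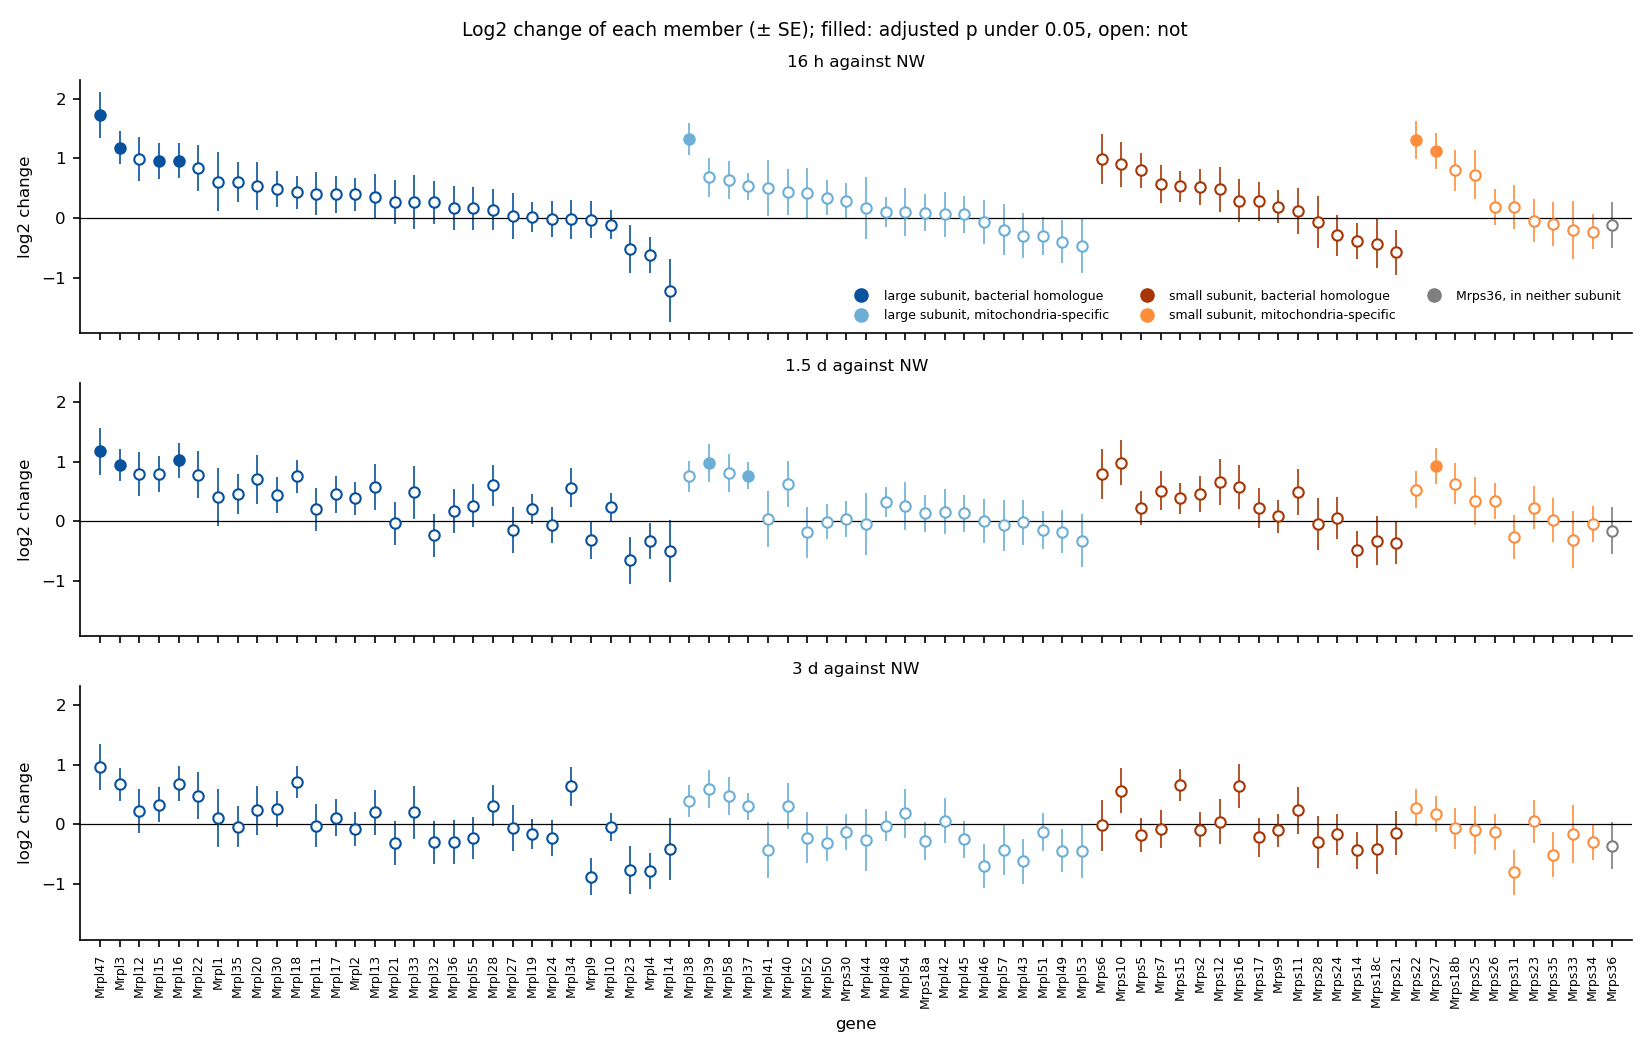
Log2 change ± SE of each of the 78 genes in the 16 h, 1.5 d and 3 d groups against NW, ordered by class and by the 16 h value, with filled points at adjusted p under 0.05. Filled points number 7 at 16 h, 6 at 1.5 d and 0 at 3 d, and all of them lie above 0.

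At 1.5 d, 6 of 78 members rose relative to NW (7.69%) and none fell, where 13.7% of all genes tested rose and 10.8% fell. Positive changes were found for 54 of 78 (69.2%), with a median of 0.23, against 50.6% and a median of 0.01 for all genes. The libraries did not overlap for 12 members that were higher (15.4%) and none that was lower, against 20.5% and 20.2% of all genes. At an unadjusted p under 0.05 there were 11 of 78 members, all higher, against 5489 of 14901 genes, 2962 of them higher. DESeq2 called 9 members higher and 0 lower, where it called 16.3% of all genes higher and 15% lower. Limma-voom called 5 members higher and 0 lower, where it called 14.3% of all genes higher and 14% lower. Mrpl47, Mrpl16, Mrpl3 and Mrps27 passed the test here as at 16 h, and Mrpl39 and Mrpl37 were added. The 2 comparisons share the NW libraries, so their overlap is not independent.

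Mrpl47 had 13.1, 7.17 and 6.13 CPM at 1.5 d, all above the highest NW library at 5.38 CPM (1.17 ± 0.389, adjusted p = 0.0435). Mrpl16 had 35.3, 27.1 and 19.2 CPM at 1.5 d, against 13.8, 15.4 and 11.1 CPM in NW (1.02 ± 0.293, adjusted p = 0.0230). Mrpl3 had 51.9, 30.7 and 37.7 CPM at 1.5 d (0.94 ± 0.275, adjusted p = 0.0246), and Mrps27 had 23.4, 20.8 and 35.4 CPM (0.93 ± 0.299, adjusted p = 0.0375). For Mrps27 the lowest 1.5 d library was close to the highest NW library at 19.9 CPM. Mrpl39, a large subunit protein specific to mitochondria, had 38.1, 20.5 and 22.1 CPM at 1.5 d, against 13.3, 18.2 and 9.42 CPM in NW (0.98 ± 0.322, adjusted p = 0.0408). Mrpl37, from the same class, had 71.9, 47.9 and 56.2 CPM at 1.5 d, against 26.7, 38.6 and 38.4 CPM in NW (0.76 ± 0.228, adjusted p = 0.0276).

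These calls rested on few libraries. Leaving out 1.5 d replicate 1, the high library of its group, left 1 member that rose and a median of -0.02, and leaving out NW replicate 1, NW replicate 3 or 1.5 d replicate 3 left 2, with 9.26% to 11.7% of all genes rising in these 4 fits, whereas the median was 0.51 without NW replicate 2. With the keratinocyte marker score as a covariate, 6 members rose at 16 h and 0 at 1.5 d, where 11.7% and 5.13% of all genes rose.

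**Figure D4:**
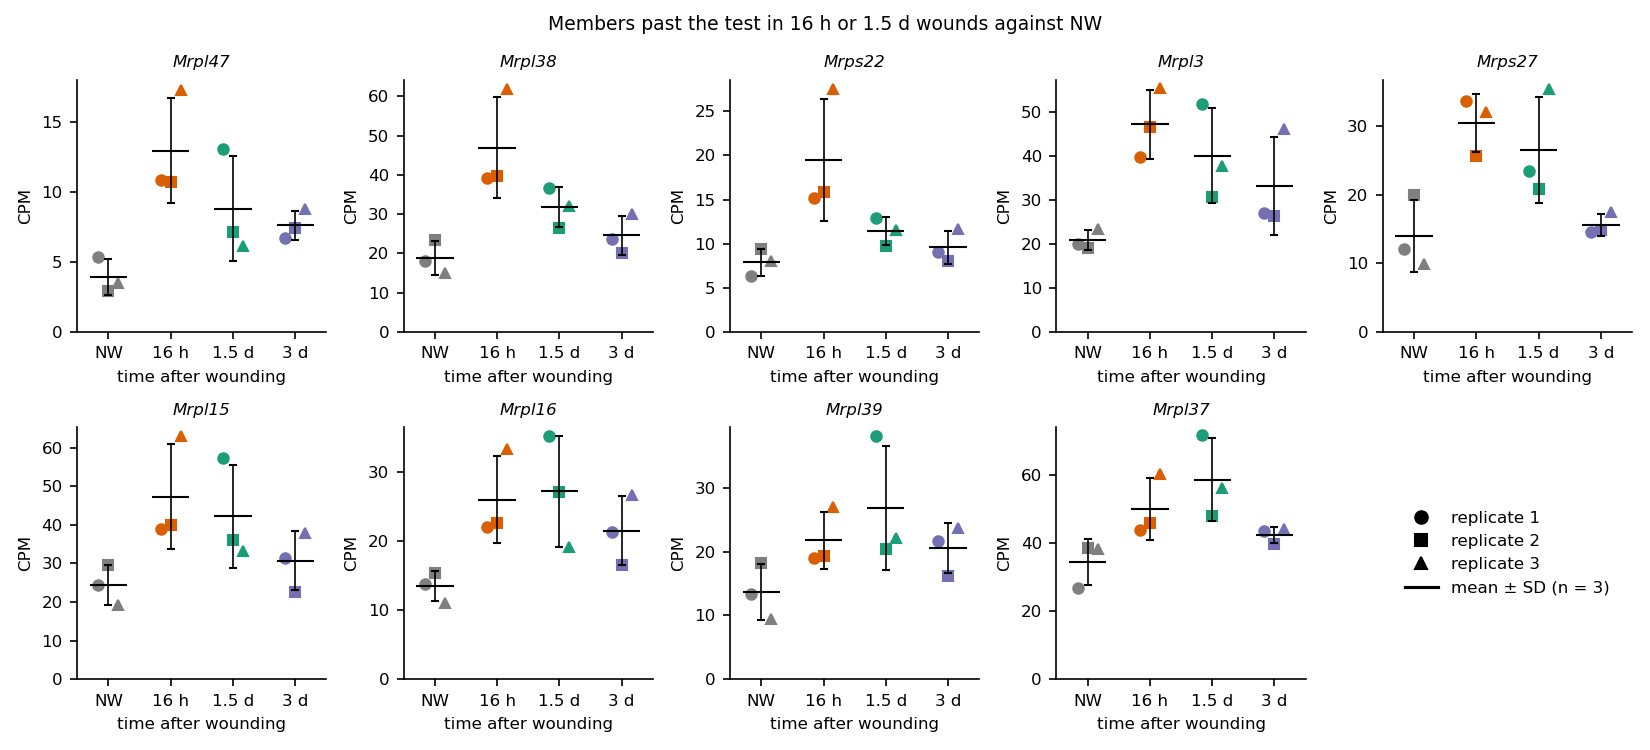
CPM of the 9 genes that passed the test at 16 h or 1.5 d against NW, with 1 point per library, shape for the replicate, and the mean ± SD of each group (n = 3). Mrpl38 stands at 39.3 to 61.8 CPM at 16 h and at 15 to 23.4 CPM in NW, with 20.2 to 29.9 CPM at 3 d.

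At 3 d no member passed the test against NW in either direction, where 12.0% of all genes rose and 9.15% fell. The change was positive for 30 of 78 (38.5%), with a median of -0.08. This median was -0.35 without 3 d replicate 3 and 0.13 without NW replicate 2, so its sign rests on single libraries. At an unadjusted p under 0.05 there were 7 of 78 members, 5 of them higher, against 5071 of 14901 genes, 2806 of them higher. DESeq2 called 0 members higher and 1 lower, where 15.6% of all genes were higher and 12.5% lower. Limma-voom called 0 members, where 12.6% of all genes were higher and 10.8% lower. The libraries did not overlap for 7 members that were higher (8.97%) and 2 that were lower, Mrpl9 and Mrpl4 (2.56%), where 20.9% of all genes were apart and higher and 19.4% apart and lower. Mrpl47, at 6.72, 7.42 and 8.78 CPM at 3 d, was still above every NW library (0.96 ± 0.389, adjusted p = 0.0962). Mrpl3 had 27.1, 26.4 and 46.1 CPM at 3 d, above the NW libraries by 0.67 ± 0.274 (adjusted p = 0.101). Mrpl9, a bacterial-type protein of the large subunit named here after its values were seen, had 12.9, 11.7 and 13.9 CPM at 3 d, against 20.4, 30.7 and 19.8 CPM in NW (-0.88 ± 0.312, adjusted p = 0.0608). All 3 were apart between the groups and missed the threshold.

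Few members passed the test between wound times. None passed it at 1.5 d against 16 h, where 2.39% of all genes rose and 0.470% fell. The count was also 0 with DESeq2, where 5.73% of all genes rose and 2.45% fell, and with limma-voom (2.2% and 0.617%). At an unadjusted p under 0.05 there was 1 member, Mrps22 (-0.78), against 2596 of 14901 genes. The 1.5 d libraries all lay below the 16 h libraries for 4 members (5.13%) and above them for none, against 11.1% and 12.4% of all genes. None passed at 3 d against 1.5 d with any of the 3 tools, where 0.101% of all genes rose and 0.0403% fell with edgeR. With DESeq2 0.868% rose and 0.532% fell, and with limma-voom 0.349% and 0.148%. The change was negative for all but 9 of 78 members, with a median of -0.31. At an unadjusted p under 0.05 there was 1 member, Mrps27 (-0.76), against 1191 of 14901 genes. There the libraries were apart and lower for 3 members and apart and higher for none, against 6.63% and 6.93% of all genes. At 3 d against 16 h, 5.86% of all genes rose and 3.67% fell, and 1 member fell, Mrpl38, with 23.7, 20.2 and 29.9 CPM at 3 d against 39.3, 39.7 and 61.8 CPM at 16 h (-0.93 ± 0.267, 1.91-fold lower, adjusted p = 0.0446). The 3 d libraries all lay below the 16 h libraries for 14 members (17.9%), where 15.5% of all genes were apart and lower, and no member was apart and higher, against 17% of all genes.

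Several of these 14 came near the threshold at 3 d against 16 h. Mrps5 had 17, 16.4 and 23.2 CPM at 3 d against 32.5, 41.1 and 38.3 CPM at 16 h (-0.98, adjusted p = 0.0519). Mrps22 had 9.04, 8.07 and 11.7 CPM at 3 d against 15.2, 15.9 and 27.5 CPM at 16 h (-1.02, adjusted p = 0.0576). Mrps27 had 14.6, 14.8 and 17.5 CPM at 3 d against 33.7, 25.6 and 32.0 CPM at 16 h (-0.96, adjusted p = 0.0621). The median change of the members was -0.30, between -0.58 without 3 d replicate 3 and -0.09 without 16 h replicate 3. The call for Mrpl38 held when NW replicate 2, NW replicate 3 or 1.5 d replicate 1 was left out and was lost without any other library, with a change of -0.68 (adjusted p = 0.167) without 16 h replicate 3 at the weakest.

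Tested over the 4 groups at once, 5 members differed, where 29.7% of all genes did. They were Mrpl38 (adjusted p = 0.0103), Mrps22 (0.0219), Mrps27 (0.0225), Mrpl3 (0.0265) and Mrpl47 (0.0269). The count was 2 without 16 h replicate 3. By group mean, 30 members were highest at 16 h, 28 at 1.5 d, 17 in NW and 3 at 3 d, where all genes tested were highest in NW for 35.8%, at 16 h for 25.2%, at 1.5 d for 17.4% and at 3 d for 21.7%. The lowest mean fell at 3 d for 38 members (48.7%) and in NW for 28 (35.9%), against 20.1% and 34.6% of all genes tested.

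No subunit stood out at 16 h against NW. In the large subunit 5 of 51 rose (9.8%) with a median change of 0.27, and in the small subunit 2 of 26 (7.69%) with a median of 0.24. Of all genes tested 13.5% rose, the share that stands beside each count in this paragraph. By ancestry, 4 of 30 large subunit genes with a bacterial homologue rose (Mrpl47, Mrpl3, Mrpl15 and Mrpl16) and 1 of 21 specific to mitochondria (Mrpl38). Of the small subunit 0 of 16 with a bacterial homologue rose and 2 of 10 specific to mitochondria (Mrps22 and Mrps27). By length, 2 of the 39 members under the median exon length rose, with a median change of 0.14, and 5 of the 39 at or over it, with a median of 0.40. Neither split was tested.

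Because the members follow the short-gene score within groups, the fit was repeated with that score as a covariate, a choice made after the data were seen. It gave 30 members higher and 1 lower at 16 h against NW, where 17.9% of all genes were higher and 13.6% lower. At 1.5 d it gave 26 higher and 0 lower (all genes 18.5% and 14.1%), and at 3 d 13 higher and 1 lower (14.7% and 10.8%). The score was chosen because the members follow it, which makes smaller p-values for them likely. These counts are therefore no separate support for a rise. Whether the score itself changes with wounding was not tested. The fit with the score also moved the members' median change, from 0.26 to 0.46 at 16 h, 0.23 to 0.30 at 1.5 d and -0.08 to 0.13 at 3 d. In that fit Mrpl12, at 62.5, 56.5 and 94.2 CPM at 16 h against 28.6, 50.4 and 27.9 CPM in NW, changed by 1.28 (adjusted p = 5.38e-05), and Mrpl38 by 1.45 (adjusted p = 0.000122). Mrps6, which binds the small ribosomal RNA, changed by 1.27 (adjusted p = 0.000676), with 24.2, 22.9 and 40.2 CPM at 16 h against 12.4, 19.8 and 11.8 CPM in NW. Mrpl14 was the member lower at 16 h, by -0.69 (adjusted p = 0.0447), and Mrpl4 the one lower at 3 d, by -0.53 (adjusted p = 0.0283). At 3 d against 16 h, 14 members were lower and 0 higher, where 8.22% of all genes were lower and 9.05% higher. At 1.5 d against 16 h only Mrpl38 passed, lower by -0.62 (adjusted p = 0.0475), where 2.73% of all genes were lower and 5.27% higher. None passed at 3 d against 1.5 d, where 0.221% were lower and 0.275% higher.

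When the library with the highest score of each group was left out instead, leaving 8 libraries, 12 members rose at 16 h, 5 at 1.5 d and 1 at 3 d, and 1 fell at 3 d. In that fit 13.2% of all genes rose at 16 h, 11.6% at 1.5 d and 10.9% at 3 d, and 5.92% fell at 3 d. Scaled to the summed members, which removes any change they share and puts the median of all genes at -0.33 at 16 h, against -0.04 without it, Mrpl38 was higher at 16 h (1.02) and Mrpl14 (-1.40) and Mrpl4 (-0.88) were lower. No other member passed in any of the 6 comparisons under this scaling.

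**Figure D5:**
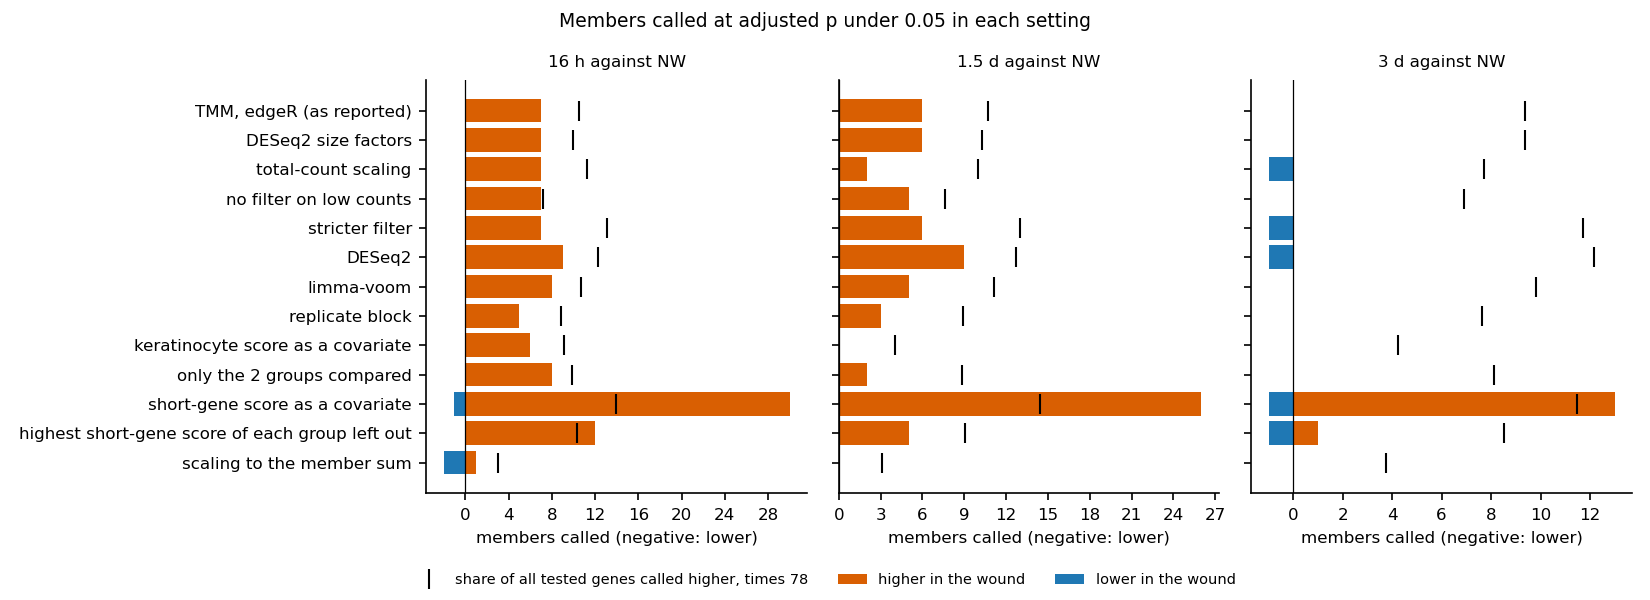
Members called higher (right of 0) or lower (left of 0) at adjusted p under 0.05 in 16 h, 1.5 d and 3 d wounds against NW, in each setting of the analysis, with a tick at the share of all tested genes called higher multiplied by 78. The bars are longest with the short-gene score as a covariate, at 30, 26 and 13 members higher, and in most other settings they end short of the tick.

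The promoters of the genes that rose against NW are shown because the members moved together from library to library, so that their starts can be read side by side. They are those of the 7 of 9 such genes with an entry, whether or not they hold a motif, and Mrpl38 and Mrpl15 are not shown. Promoters of RefSeq (GRCm38.p6), 250 bases before to 50 after the start, matched 69 of 78 members, 66 of them within 50 bases of the start in the count table. They were searched on both strands for the letters GCATGCGC (core of the NRF1 site), CCGGAAG (ETS factors, to which GABPA belongs), CACGTG (the E-box bound by MYC) and AAGATGGCG (YY1). Matches are in capitals in either orientation, and each promoter is written 5′ to 3′ on the gene's own strand. Mrps11 is shown as a shared promoter, since its start lies 42 bases from that of Mrpl46 on the other strand.
Mrpl47, chr3:32736706-32737005, minus strand: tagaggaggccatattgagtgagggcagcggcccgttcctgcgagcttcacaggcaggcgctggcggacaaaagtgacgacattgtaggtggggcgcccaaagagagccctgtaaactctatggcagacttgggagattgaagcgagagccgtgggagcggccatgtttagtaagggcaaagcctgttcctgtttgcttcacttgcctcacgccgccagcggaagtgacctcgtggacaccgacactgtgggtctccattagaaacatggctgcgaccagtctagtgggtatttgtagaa
Mrpl16, chr19:11770165-11770464, plus strand: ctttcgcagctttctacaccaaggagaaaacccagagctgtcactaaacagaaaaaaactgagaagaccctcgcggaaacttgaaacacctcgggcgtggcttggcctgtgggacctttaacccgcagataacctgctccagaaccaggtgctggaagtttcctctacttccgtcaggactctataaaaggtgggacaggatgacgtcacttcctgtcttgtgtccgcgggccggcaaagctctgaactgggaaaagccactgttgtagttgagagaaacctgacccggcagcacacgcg
Mrpl3, chr9:105053018-105053317, plus strand: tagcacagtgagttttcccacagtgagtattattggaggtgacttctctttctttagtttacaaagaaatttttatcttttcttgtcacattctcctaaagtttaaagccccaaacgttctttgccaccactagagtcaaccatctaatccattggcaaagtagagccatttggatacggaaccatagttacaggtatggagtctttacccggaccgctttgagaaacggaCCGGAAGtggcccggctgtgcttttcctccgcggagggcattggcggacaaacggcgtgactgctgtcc
Mrps22, chr9:98601630-98601929, minus strand: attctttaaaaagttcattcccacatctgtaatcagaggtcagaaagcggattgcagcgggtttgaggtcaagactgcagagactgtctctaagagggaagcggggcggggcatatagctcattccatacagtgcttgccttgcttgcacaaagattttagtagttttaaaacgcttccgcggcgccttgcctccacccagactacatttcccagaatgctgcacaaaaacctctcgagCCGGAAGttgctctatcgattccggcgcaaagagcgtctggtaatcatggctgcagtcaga
Mrps27, chr13:99344536-99344835, plus strand: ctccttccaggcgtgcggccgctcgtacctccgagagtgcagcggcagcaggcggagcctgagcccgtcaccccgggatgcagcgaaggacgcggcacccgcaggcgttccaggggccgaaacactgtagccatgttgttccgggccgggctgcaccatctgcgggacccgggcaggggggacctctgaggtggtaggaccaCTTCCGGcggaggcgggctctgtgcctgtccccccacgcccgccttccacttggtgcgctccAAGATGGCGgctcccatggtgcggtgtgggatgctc
Mrpl37, chr4:107066817-107067116, minus strand: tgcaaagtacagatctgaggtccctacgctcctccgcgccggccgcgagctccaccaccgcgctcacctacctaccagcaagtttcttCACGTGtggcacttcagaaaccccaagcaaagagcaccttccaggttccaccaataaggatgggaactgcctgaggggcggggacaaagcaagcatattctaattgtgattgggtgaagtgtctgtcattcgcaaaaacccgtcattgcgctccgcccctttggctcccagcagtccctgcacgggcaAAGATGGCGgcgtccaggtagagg
Mrpl39, chr16:84735195-84735494, minus strand: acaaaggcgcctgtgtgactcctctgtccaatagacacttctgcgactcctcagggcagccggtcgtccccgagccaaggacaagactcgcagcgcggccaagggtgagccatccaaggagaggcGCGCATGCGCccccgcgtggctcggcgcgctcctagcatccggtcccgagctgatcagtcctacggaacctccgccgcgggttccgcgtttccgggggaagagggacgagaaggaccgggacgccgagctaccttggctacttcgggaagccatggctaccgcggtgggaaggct
Mrps11, chr7:78782881-78783180, plus strand: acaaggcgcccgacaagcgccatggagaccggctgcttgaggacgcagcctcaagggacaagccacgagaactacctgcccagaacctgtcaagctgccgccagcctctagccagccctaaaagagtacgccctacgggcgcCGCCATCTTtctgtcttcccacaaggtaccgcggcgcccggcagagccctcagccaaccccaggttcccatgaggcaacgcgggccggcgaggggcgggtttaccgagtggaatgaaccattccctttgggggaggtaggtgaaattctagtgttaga

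Mrpl47, with the largest change, and Mrpl16 hold none of the 4 in this window. The capitals are ETS letters in Mrpl3 and Mrps22, ETS and YY1 letters in Mrps27, the E-box and YY1 letters in Mrpl37, the NRF1 core in Mrpl39 and YY1 letters in Mrps11. Over the 69 members, 34.8% held the ETS letters, against 16.6% of 11656 other tested genes. For a member the promoter nearest to its start in the count table was used, and for other genes the first one listed. The shares of the 2 sets thus rest on windows chosen in different ways. The YY1 letters were in 11.6% of members and 2.82% of other tested genes, the NRF1 core in 11.6% and 4.98%, and the E-box in 7.25% and 10%. At least 1 of the 4 was found in 52.2% of members and 30.2% of the others, at a median GC content of 58.3% and 60.3%. The 36 members with a match had a median change of 0.22 at 16 h against NW, with 3 called higher (8.33%). The 33 with a promoter and no match had a median of 0.29, with 2 called higher (6.06%). Of all genes tested 13.5% rose at 16 h. A match is a description of the letters and not a bound site.

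The genes themselves are scattered over 17 autosomes, and many share a start region with a gene on the opposite strand. A partner that starts within 1000 bases and runs the other way was found for 29 of 78 members (37.2%), against 13.2% of the other tested genes. Of the genes with the strongest changes, Mrpl47 lies at chr3:32727497-32736755 on the minus strand of mm10, with 872 exon bases and Ndufb5 starting 308 bases away. Mrpl38 lies at chr11:116131817-116138868 on the minus strand with 1411 exon bases and no such partner.

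The rest of the machinery that makes mitochondrial proteins was read from lists of named genes, whose counts stand against the 13.5% of all genes that rose and 11.2% that fell at 16 h, 13.7% and 10.8% at 1.5 d, and 12% and 9.15% at 3 d. Of 5 mitoribosomal proteins under other symbols, Ptcd3, a small subunit protein, rose at 16 h, with 46.1, 46.8 and 52.9 CPM against 28.3, 13.1 and 14.2 CPM in NW (1.39 ± 0.289, adjusted p = 0.00421), and at 1.5 d (1.08, adjusted p = 0.0151). Dap3, which binds GTP in the small subunit, rose at 1.5 d, with 104, 97.3 and 88.9 CPM against 44.0, 61.3 and 57.9 CPM in NW (0.83, adjusted p = 0.0146). Chchd1 (-0.37), Aurkaip1 (-0.06) and Gadd45gip1 (0.42 at 16 h) did not pass.

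Of 12 translation factors tested, 2 rose and 0 fell at 16 h. Gfm1, the elongation factor that moves the ribosome along the messenger, had 70.0, 69.6 and 57.3 CPM at 16 h, against 22.0, 22.2 and 22.2 CPM in NW (1.57 ± 0.194, adjusted p = 0.000152). Tufm, which brings tRNAs to the ribosome, had 64.4, 75.0 and 76.9 CPM at 16 h, against 33.8, 28.2 and 35.6 CPM in NW (1.15 ± 0.228, adjusted p = 0.00316). In neither did NW replicate 2 stand high. At 3 d Gfm1 had fallen relative to 16 h (-1.09, adjusted p = 0.00359), whereas Tufm was still above NW (0.69, adjusted p = 0.0462). Mtif3 (-0.74, adjusted p = 0.122 at 16 h) and Mrrf (0.51, adjusted p = 0.223) did not pass. Among 20 mitochondrial tRNA synthetases 2 rose at 16 h, Wars2 (0.98, adjusted p = 0.0398) and Rars2 (0.73, adjusted p = 0.0335). Wars2 also rose at 1.5 d (1.39, adjusted p = 0.00744) and at 3 d (1.12, adjusted p = 0.0257). Yars2 (0.80, adjusted p = 0.0618 at 16 h) did not pass.

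Of 26 genes for ribosome assembly and RNA modification, 4 rose and 1 fell at 16 h. Fastkd2, which is needed for the large ribosomal RNA, had 42.2, 32.5 and 44.0 CPM at 16 h, against 8.77, 9.08 and 8.09 CPM in NW (2.19 ± 0.226, 4.57-fold, adjusted p = 4.3e-05). It remained above NW at 1.5 d (1.50) and 3 d (1.03, adjusted p = 0.00536). Nsun4 (1.43), Rcc1l (1.13) and Noa1 (0.98), which modify or assemble the ribosome, rose as well, and Trmt2b, an RNA methyltransferase, fell (-1.33, adjusted p = 0.0366). The median of this list was 0.00, with 13 of 26 changes positive.

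Of 13 genes that transcribe the mitochondrial genome and process its RNA, 6 rose and 0 fell at 16 h, with a median of 0.75. Lrpprc, which stabilises mitochondrial messengers, had 58.3, 75.7 and 61.4 CPM at 16 h, against 18, 11.5 and 24.4 CPM in NW (1.86 ± 0.268, adjusted p = 0.000433). Pnpt1, an RNA-degrading enzyme, had 48.1, 48.7 and 53.5 CPM at 16 h, against 15.5, 18.6 and 21.4 CPM in NW (1.44 ± 0.201, adjusted p = 0.000362). Polrmt, the RNA polymerase of mitochondria, rose by 1.25 (adjusted p = 0.0125) and Elac2, which cuts tRNA precursors, by 1.22 (adjusted p = 0.00732), while Tfam, which packs the mitochondrial genome, changed by 0.36 (adjusted p = 0.469). At 3 d against 16 h, 3 of the 13 fell and none rose. Transcripts of the mitochondrial genome were not analysed here.

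Of 11 regulators of mitochondrial genes, Pprc1, a coactivator of the PGC-1 family that responds to growth signals, had 126, 146 and 88.9 CPM at 16 h, against 68.3, 38.3 and 53.6 CPM in NW (1.17 ± 0.294, adjusted p = 0.0117). Its relatives Ppargc1a (-4.10, adjusted p = 0.134, at most 0.512 CPM at 16 h and 1.61 to 5.11 CPM in NW) and Ppargc1b (-0.53, adjusted p = 0.512) did not pass. Nrf1 (0.09), Gabpa (0.44), Esrra (0.38) and Yy1 (-0.45) did not pass at 16 h, and Myc, at 378, 487 and 502 CPM at 16 h against 560, 519 and 487 CPM in NW, was at -0.20 (adjusted p = 0.507). Myc fell at 1.5 d (-0.58, adjusted p = 0.0480) and Max, its partner, at 3 d (-1.24, adjusted p = 0.0225).

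The other gene groups that stood high in the same libraries were set beside the members. Of 81 cytosolic ribosomal protein genes tested, 2 rose and 0 fell at 16 h, with a median of 0.13, and their median was -0.17 at 1.5 d and -0.20 at 3 d. Of 85 oxidative phosphorylation subunits, 3 rose and 5 fell at 16 h with a median of -0.27, and 26 of 85 changes were positive. At 1.5 d 4 rose and 2 fell with a median of -0.09. Of all genes tested, 13.5% rose and 11.2% fell at 16 h, and 13.7% rose and 10.8% fell at 1.5 d. The members' medians of 0.26 and 0.23 at these times were above both, but the difference between lists was not tested. The members' median was 0.08 at 16 h without 16 h replicate 3 and -0.02 at 1.5 d without 1.5 d replicate 1.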

How the data were processed

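Gene counts were deposited by the authors as whole numbers, made with featureCounts 2.0.0 on paired reads over refGene exons of mm10 by gene name, per the file header, whose command sets no strand, multimapping or overlap option. STAR, SAMtools, Subread and Partek are named, without versions, per the submitters' processing notes, and SMART-Seq v4 and Nextera XT libraries per the labels' protocols. Here counts were scaled by TMM, genes with low counts were dropped with filterByExpr (14901 of 25239 kept), and all 12 libraries were fitted together with edgeR 4.0.16 (R 4.3.3), using robust quasi-likelihood and Benjamini-Hochberg adjustment at 0.05. The standard error is the log2 change over the square root of F. CPM are TMM-scaled, and CPM per kb divide them by the exon length in the table. On simulated counts the scripts were tested for the changes put in.

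The members and gene lists were chosen with earlier results of these data known. Genes named were the called members with the largest changes (at most 8 a direction against NW, 5 between wound times), the 4 highest and 4 lowest per kb, members whose symbol misplaces them or that share over 10% of exon bases, and up to 4 genes by p in each other list plus set regulators. Other names (Mrpl4, Mrpl9, Mrpl12, Mrpl14, Mrps5, Mrps6, Noa1 and Trmt2b among them) were chosen after their values were seen. Alternatives were DESeq2 1.42.0 and its size factors, limma-voom 3.58.1, total-count scaling, no filter and a stricter one (mean of 5 CPM), the replicate block, a keratinocyte score, only the 2 groups compared, each library left out, and 3 chosen after the data were seen (a short-gene score as a covariate, the library with the highest score of each group left out, scaling to the summed members).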

Additional observations from a re-analysis of the deposited data

Results flagged for a closer look

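The wound effect on Mrpl38 passed the test for a difference between 2 times, 3 d against 16 h, close to the threshold. The level was 23.7, 20.2 and 29.9 CPM at 3 d and 39.3, 39.7 and 61.8 CPM at 16 h, a log2 difference of -0.93 ± 0.267 (SE) with an adjusted p of 0.0446 by edgeR's quasi-likelihood test. All 3 libraries at 3 d were below all 3 at 16 h. The adjusted p was above 0.05 in 9 of the 12 fits that left out 1 library, between 0.0505 and 0.167.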

How the results depend on the processing

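Over the alternatives, the 14 named log2 changes of called members gave 336 values, of which 243 kept direction and call, 93 lost the call and 0 turned direction. Members higher at 16 h against NW numbered 7, and 30 with the short-gene score as a covariate, 12 with its highest library per group left out and 1 scaled to the summed members, with 1 lower under that covariate and 2 lower under that scaling. Of all genes, 13.5%, 17.9%, 13.2% and 3.83% were higher in these 4 fits, in that order. Under that covariate 13.6% of all genes were lower, and under that scaling 8.6%. Members higher at 1.5 d numbered 6, and 2 with total-count scaling, 2 with only the 2 groups compared, 3 with the replicate block, 0 with the keratinocyte score, 26 with the short-gene score and 0 scaled to the summed members. Of all genes, 13.7%, 12.8%, 11.3%, 11.4%, 5.13%, 18.5% and 3.96% were higher in these fits, in that order. At 3 d, 0 members were higher, and 13 with the short-gene score and 1 with its highest libraries left out, and 1 was lower with each of total-count scaling, the stricter filter, DESeq2, the short-gene score and those libraries left out. Of all genes, 12%, 14.7% and 10.9% were higher in the first 3 of these fits. In the fits with 1 member lower, 10.6%, 13.8%, 12.5%, 10.8% and 5.92% of all genes were lower, in the order given. At 1.5 d against 16 h the short-gene score gave 1 call, where 5.27% of all genes were higher and 2.73% lower. At 3 d against 16 h the 1 call became 0 with DESeq2 size factors, no filter, the replicate block, the keratinocyte score or the summed members, 2 with the stricter filter, limma-voom, 2 groups only or the highest libraries left out, 4 with total-count scaling or DESeq2, and 14 with the short-gene score. All these calls were lower. Of all genes, 3.67% were lower in the fit as reported. In the order given, 3.07%, 1.96%, 2.23%, 2.17% and 0.302% were lower in the settings with 0 calls. In the settings with 2 calls 5.86%, 3.67%, 3.49% and 3.09% were lower, and in those with 4 calls 6.52% and 6.03%. With the short-gene score 8.22% were lower. The 5 members that differed among the groups became 9 with DESeq2, 31 with the short-gene score and 0 scaled to the summed members. The share of all genes that differed among the groups was 29.7% in the fit as reported and was not computed in those settings. With 1 library left out the counts ran from 4 to 11 higher at 16 h, 1 to 8 higher at 1.5 d, 0 to 1 higher and 0 to 1 lower at 3 d, 0 to 3 at 3 d against 16 h, and 2 to 6 among the groups. In these fits 8.44% to 13.5% of all genes were higher at 16 h and 9.26% to 13.6% at 1.5 d. At 3 d 7.05% to 12.1% were higher and 4.73% to 8.99% lower, and at 3 d against 16 h 1.31% to 3.94% were lower. The cause of these differences was not tested. Total-count scaling moved the median of all genes to -0.11 at 3 d against NW and -0.19 at 3 d against 16 h, and scaling to the summed members to between -0.33 and 0.33. The labels state no pairing of mice by replicate number. Same-numbered libraries correlated between -0.17 and 0.17 in their deviations from the group means and matched best with their own number in 3 of 18 cases. These values cannot exclude a pairing, since 1 library of each group stood apart from the other 2, mostly under different numbers. With the replicate block 5 members were higher at 16 h, where 11.4% of all genes were, and Mrpl15 (adjusted p = 0.0653) and Mrpl16 (0.0603) lost their call.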

Other observations

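Members that share a start region with another gene did not always have the same values as their partner. At 16 h against NW, Mrpl47 changed by 1.73 and Ndufb5, a respiratory complex I subunit that starts 308 bases away on the other strand, by -0.27 (adjusted p = 0.674). Mrps27 changed by 1.13 and Ptcd2, which starts 108 bases away, by 0.39 (adjusted p = 0.258). The reverse was seen for Tcp1, a subunit of the cytosolic chaperonin, which rose by 1.13 (adjusted p = 0.00131) while Mrpl18, 238 bases away, was at 0.43, and for Mtbp, which rose by 1.65 (adjusted p = 0.0154) while Mrpl13 was at 0.36. Of the 28 partners tested, 3 rose and 1 fell at 16 h, 2 rose at 1.5 d and 3 rose at 3 d, where 13.5% of all genes rose and 11.2% fell at 16 h and 13.7% and 12% rose at 1.5 d and 3 d. The difference within a pair was not tested.

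The members also differed in how far they ranged over the 12 libraries. The highest library was 1.73 times the lowest for Mrpl10, with 29.3 to 50.8 CPM, and 6.30 times for Mrpl1. The median ratio was 2.96 for the members and 3.64 for the 12170 tested genes with counts in every library. Mrpl47 (5.97 times), Mrpl41 (5.49) and Mrpl14 (4.82) ranged widely, and Mrps9 (1.90) and Mrpl19 (1.91) little.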
